A study of Mus musculus with 2 samples.

Results

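Toll-like receptors and the adaptors that serve them were followed in CD4 T cells with and without Taf7, which is part of TFIID, the general factor that recognises core promoters. The set comprised 10 listed genes, the receptors Tlr1, Tlr2, Tlr4, Tlr6, Tlr7 and Tlr9 and the signalling or trafficking proteins Myd88, Irak4, Traf6 and Unc93b1. The set was chosen by gene family, and also by a measured value, since Tlr7 was known to be among the genes with the lowest knockout values relative to the heterozygote. Of the 10 genes, 9 were measured among 19938 genes in all, each by 1 transcript cluster, the group of probes the array summarises to a value. Irak4 was matched to no named cluster and was not analysed here.

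Total RNA came from CD4 T cells of mouse spleen, sorted as cells rich in both CD4 and the beta chain of the T cell receptor. Cells with little CD44 on their surface, the naive ones, were enriched. The knockout sample was TAF7f/- with the Cre transgene 8EIII-cre, labelled Taf7 -/-, and the heterozygous sample was TAF7f/- without that transgene, labelled Taf7 +/-. Both carried a floxed and a null Taf7 allele on a mix of C57/BL6 and 129, so the control was itself heterozygous and no wild-type sample was analysed here. The labels do not say what drives the transgene, how old the mice were or how many mice gave each sample. Each genotype had 1 array, so no value here has an error, no test was possible, and a difference may come from either sample alone.

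Toll-like receptors are membrane proteins that recognise microbial lipids, proteins and nucleic acids and are best known in myeloid cells, dendritic cells and B cells, with lower levels in T cells. Tlr1, Tlr2, Tlr4 and Tlr6 act at the cell surface, where Tlr2 pairs with Tlr1 or Tlr6, whereas Tlr7 and Tlr9 detect RNA and DNA in endosomes and depend on the chaperone Unc93b1 to get there. Most of these receptors signal through Myd88, which assembles the kinase Irak4 and leads through Traf6 to NF-kB and interferon regulatory factors. The same adaptors serve the receptors for interleukin-1 and interleukin-18, which T cells also use.

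The deposited values are log2 signals, with array medians of 7.68 on the heterozygous and 7.75 on the knockout array. The Taf7 signal itself was 8.34 on the heterozygous and 7.79 on the knockout array, a log2 difference of -0.55, and its probes may lie outside the deleted part, in which case it does not check the genotype. Differences are given throughout as knockout minus heterozygote on the log2 scale. A gene was counted past a fold only if its mean over both arrays reached a log2 signal of 7.71, the 50th percentile over the rows of the table, which 10457 genes did. Of the 9 measured members 8 passed this filter, and Tlr4 did not. The median difference was -0.05 among genes above the filter and 0.14 among genes below it, so the offset between the arrays changed with signal.

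Tlr7, Tlr1 and Tlr6 had lower signals in the knockout, Tlr9 a higher one, and the signals of Myd88 and Traf6 were close on both arrays. By sign 8 of the 9 measured members were lower, as were 59.1% of the genes above the filter and 39.3% of all measured genes. The median difference of the 9 was -0.23, and -0.15 without Tlr7, against -0.05 for genes above the filter and 0.06 for all measured genes. Of the 8 members that passed the filter, 3 were at least 1.5-fold lower, where 3.17% of all genes above the filter were, and none was higher by that much, where 0.449% were. At 2-fold, 1 member was lower against 0.325% of genes, and none was higher against 0.0383%. With the filter at the 75th percentile 1 member, Tlr1, counted as lower by 1.5-fold, since Tlr7 and Tlr6 then fell short of the filter. Nothing is read from these shares, because the same contrast brought Tlr7 into the set. Tlr6 also had a knockout value below the filter value and passed the filter through its higher heterozygous value. In a bulk sample, fewer cells of a type and less RNA per cell cannot be told apart.

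**Figure D1:**
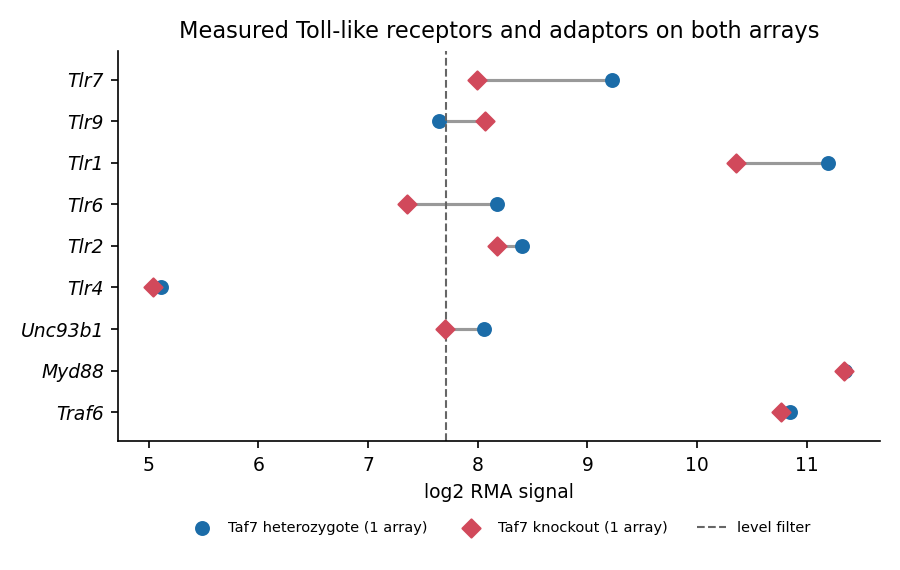
The log2 RMA signal (x axis) of the 9 measured members (rows) in the Taf7 heterozygote (circles) and the Taf7 knockout (diamonds), 1 array each, with the filter value of 7.71 as a dashed line. Tlr7, Tlr1 and Tlr6 have the longest steps to the left from heterozygote to knockout, Tlr9 lies to the right of its heterozygous value, and the points of Myd88 nearly coincide; probes differ between genes, so levels are compared within a row only.

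Among the endosomal receptors, Tlr7 and Tlr9 differed in opposite directions. Tlr7, the receptor for single-stranded RNA, had a log2 signal of 9.22 on the heterozygous and 7.99 on the knockout array. The difference was -1.23, or 2.34-fold lower, and both values were above the filter value. It held rank 15 from the lowest among the 10457 genes, just after Ust at -1.25 and Adh1 at -1.24 and just before Fam111a at -1.22 and Arhgap20 at -1.21. Tlr7 was brought into the set as one of the lowest genes of this contrast, with no fixed bound, so a low rank was given in advance. Of the 500 genes nearest to Tlr7 in mean signal, 0 had a lower difference, and their central 95% range ran from -0.69 to 0.43. Nothing is read from that place, for the same reason.

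Tlr9, the receptor for unmethylated CpG DNA, had a log2 signal of 7.65 on the heterozygous and 8.06 on the knockout array. The difference was 0.41, or 1.33-fold higher, and the heterozygous value was below the filter value. Of the 500 genes nearest to Tlr9 in mean signal, 479 had a lower difference, and their central 95% range reached 0.47. Tlr9 was thus the single measured member with a higher knockout value, and it lay inside that range.

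The receptors of the cell surface were all lower by sign, and 2 of the 4 were lower by at least 1.5-fold. Tlr1, which recognises triacylated lipopeptides together with Tlr2, had a log2 signal of 11.19 on the heterozygous and 10.35 on the knockout array. The difference was -0.84, or 1.79-fold lower, at rank 84 from the lowest, and 4 of the 500 genes nearest in mean were lower. Tlr6, which recognises diacylated lipopeptides together with Tlr2, had a log2 signal of 8.17 on the heterozygous and 7.36 on the knockout array. The difference was -0.81, or 1.76-fold lower, at rank 96, and 1 of the 500 nearest genes was lower. The knockout value of Tlr6 was below the filter value of 7.71, so that fold rests on a low signal. Tlr1 and Tlr6 were therefore the second and the third lowest members, with nearly equal differences from very different signals.

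Their shared partner differed less. Tlr2 had a log2 signal of 8.40 on the heterozygous and 8.17 on the knockout array, a difference of -0.23, and 106 of the 500 genes nearest in mean were lower. Tlr4, the receptor for bacterial lipopolysaccharide, had a log2 signal of 5.11 on the heterozygous and 5.04 on the knockout array, a difference of -0.07. Both Tlr4 values were far below the filter value. The 6 receptors had a median difference of -0.52, which depends on Tlr7, the gene chosen for its low value, and was -0.23 without it. The 3 measured adaptors had a median of -0.08.

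**Figure D2:**
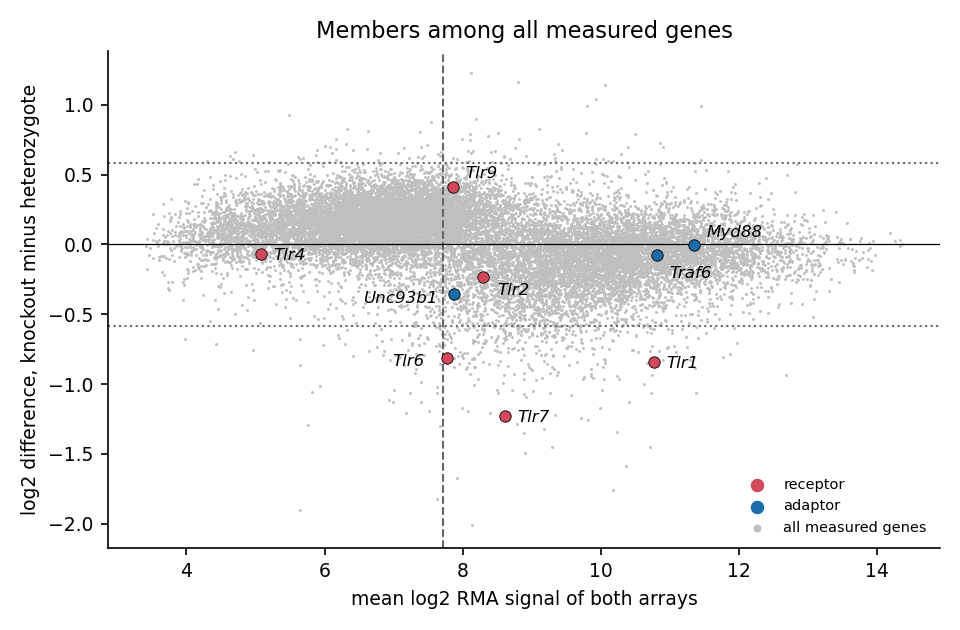
The log2 difference of knockout minus heterozygote (y axis) against the mean log2 RMA signal of both arrays (x axis) for all 19938 measured genes (grey), with receptors in red and adaptors in blue; the dashed line is the filter value of 7.71 and the dotted lines mark 1.5-fold. Tlr7, Tlr1 and Tlr6 lie below the lower dotted line, and the other 6 measured members lie between the dotted lines.

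The adaptors lay closer to equality than Tlr7, Tlr1 and Tlr6, but Unc93b1 lay further from it than the receptors Tlr2 and Tlr4. Unc93b1, the chaperone that carries endosomal receptors out of the endoplasmic reticulum, had a log2 signal of 8.05 on the heterozygous and 7.70 on the knockout array. The difference was -0.36, or 1.28-fold lower, and 27 of the 500 genes nearest in mean were lower. Its knockout value was just below the filter value. Traf6, the ubiquitin ligase downstream of the receptors, had a log2 signal of 10.84 on the heterozygous and 10.77 on the knockout array, a difference of -0.08. Myd88 had a log2 signal of 11.35 on the heterozygous and 11.34 on the knockout array, a difference of -0.01, whose sign changed when the arrays were centred, freed of their trend or quantile normalised. In each of these settings Tlr7, Tlr1 and Tlr6 remained the members past 1.5-fold. The difference lay between -1.23 and -1.18 for Tlr7, between -0.84 and -0.77 for Tlr1, and between -0.96 and -0.77 for Tlr6.

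Tlr1 and Tlr6 are neighbouring genes on chromosome 5 and TFIID binds the core promoter, so the bases before their annotated starts are shown here with those of Tlr9, the member higher by sign, and Myd88, the member nearest to equality. Each run holds the 120 bases before a start, from RefSeq on GRCm38.p6, read in the direction of the gene. Tlr1 has starts with windows at chr5:64932700-64932819 and chr5:64933559-64933678, and Tlr6 at chr5:64959167-64959286 and chr5:64960049-64960168, all on the minus strand. The Tlr9 window is chr9:106222478-106222597 on the plus strand, and the Myd88 window is chr9:119340019-119340138 on the minus strand. Capitals mark matches to the motifs named after the sequences.
Tlr1, downstream start: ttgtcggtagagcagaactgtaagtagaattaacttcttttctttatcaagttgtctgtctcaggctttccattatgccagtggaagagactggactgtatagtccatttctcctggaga
Tlr1, upstream start: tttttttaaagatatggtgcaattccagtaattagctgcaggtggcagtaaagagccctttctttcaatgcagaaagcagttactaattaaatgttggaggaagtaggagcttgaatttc
Tlr6, downstream start: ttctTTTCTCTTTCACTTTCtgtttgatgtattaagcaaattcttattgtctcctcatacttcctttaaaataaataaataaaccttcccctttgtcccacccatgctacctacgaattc
Tlr6, upstream start: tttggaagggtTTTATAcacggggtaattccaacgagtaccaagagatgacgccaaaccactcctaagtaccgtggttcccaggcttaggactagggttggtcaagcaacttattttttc
Tlr9: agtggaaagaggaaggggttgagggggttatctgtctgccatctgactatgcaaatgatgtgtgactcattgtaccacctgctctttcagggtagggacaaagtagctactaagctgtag
Myd88: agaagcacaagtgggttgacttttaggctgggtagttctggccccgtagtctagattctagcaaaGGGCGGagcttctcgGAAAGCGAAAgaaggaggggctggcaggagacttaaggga

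Motifs were searched on both strands of the 300-base windows, 250 bases before to 50 bases after the start, of which 7 of the 10 members had 9. Tlr4, Tlr7 and Unc93b1 had no entry. The TATA box letters TATAAA occurred in the upstream window of Tlr6, at 3 places, all on the strand opposite to the gene. They also occurred in the Myd88 window, at 2 overlapping places. None of these lay within 40 bases of the start. Over all 32851 windows, 13.6% held that motif. In 1.99% it started 20 to 40 bases before the start on the gene strand, so few windows of any genes have it there. The GC box letters GGGCGG occurred in the windows of Irak4, Myd88, Tlr2 and Traf6, and in 35.7% of all windows. The core of the interferon-stimulated response element (GAAA, any 2 bases, GAAA) occurred at 2 overlapping places in the downstream window of Tlr6, at positions -116 to -101 relative to the start, and once in that of Myd88, and in 3.44% of all windows. The Tlr1 and Tlr9 windows held none of these motifs. These matches describe letters in a window and were tied to no measurement of binding.

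The genes beside Tlr7 and beside Tlr1 and Tlr6 were compared to see whether whole neighbourhoods shifted, with gene order taken from GRCm38.p6. Tlr8, the neighbour of Tlr7 on the X chromosome and its closest relative, was below the filter, at a log2 signal of 5.33 on the heterozygous and 5.60 on the knockout array. On the other side, Prps2, a nucleotide synthesis enzyme, had a difference of 0.04. The actin-binding Tmsb4x, on the same side as Tlr8, had one of -0.05. The other measured genes within 3 places were Egfl6 at 0.14 and Frmpd4 at 0.03, both below the filter, and Msl3 at -0.30. Only Prps2, Tmsb4x and Msl3 were thus above the filter, and none of them differed by 1.5-fold. Of all genes above the filter, 3.17% were lower and 0.449% higher by that much, so nothing is read from so few neighbours. Across the X chromosome, 287 genes above the filter had a median difference of -0.12, with 15 lower by at least 1.5-fold, and the autosomes had a median of -0.05 with 316 of 10138 lower to that extent.

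Next to Tlr1 the transcription factor Klf3 had a difference of -0.20, Tbc1d1 one of -0.09 and Pgm2 one of -0.07. Beyond Tlr6, Fam114a1 was below the filter at 0.07. The next gene, Klhl5, a member of the kelch-like family, had a log2 signal of 9.59 on the heterozygous and 8.76 on the knockout array, a difference of -0.83. Wdr19 followed at -0.18. The stretch was drawn around Tlr1 and Tlr6, so these members do not count as neighbours. Of the neighbours named here, Klhl5 alone was lower by at least 1.5-fold, where 3.17% of all genes above the filter were. Fam114a1, higher by sign, lay between Tlr6 and Klhl5.

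**Figure D3:**
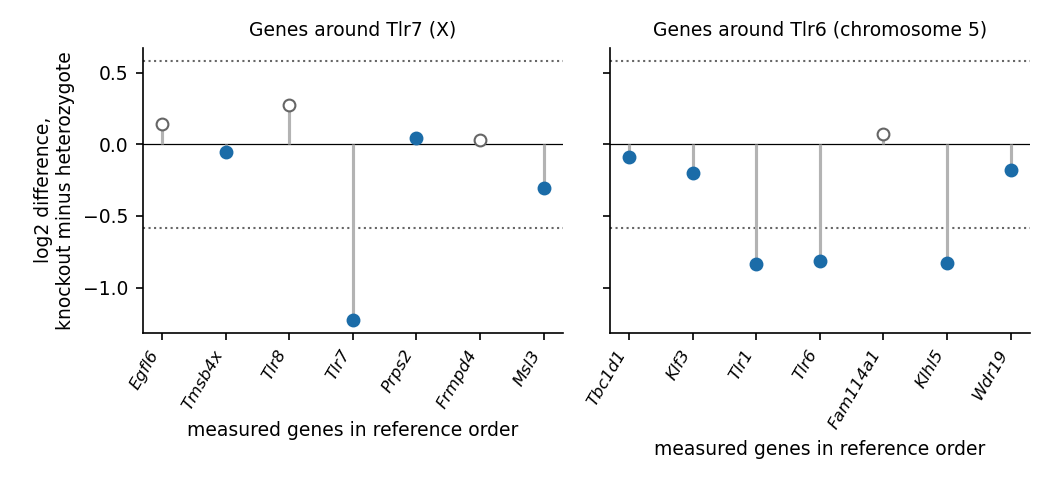
The log2 difference of knockout minus heterozygote (y axis) of measured genes in reference order (x axis) around Tlr7 on X (left) and around Tlr6 on chromosome 5 (right); filled points are above the filter on mean signal, open points below it, and dotted lines mark 1.5-fold. Tlr7 stands alone below the lower dotted line on the left, whereas Tlr1, Tlr6 and Klhl5 lie below it on the right.

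The rest of the pathway was described by lists of 136 further genes, of which 120 were measured and 87 were above the filter. Of these 87, 10 were lower by at least 1.5-fold, where 3.17% of all genes above the filter were. Interferon-stimulated genes made up 6 of the 10. By the same measure 1 was higher, against 0.449% of all genes above the filter. The median difference over the 120 was -0.03. The other Toll-like receptors were low: of 4 measured, only Tlr12 was above the filter, at a difference of 0.12, and Tlr3, Tlr8 and Tlr13, all below the filter, had differences from 0.04 to 0.32. Co-receptors had 2 of 6 genes above the filter, and both were lower by at least 1.5-fold. Ly96, which encodes the MD-2 partner of Tlr4, had a log2 signal of 9.15 on the heterozygous and 8.53 on the knockout array, a difference of -0.62. Lbp, the lipopolysaccharide-binding protein, had a difference of -0.73, while Cd14 at -0.01 and Cd180 at 0.20 were below the filter.

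Among proteins that carry or process endosomal receptors, 1 of 11 genes above the filter was past 1.5-fold. This was Lgmn, an asparagine endopeptidase of endosomes, with a log2 signal of 9.96 on the heterozygous and 9.10 on the knockout array, a difference of -0.86. The protease Ctss was at -0.34, the chaperones Hsp90b1 at -0.13 and Cnpy3 at -0.18, and the transporter Slc15a4 at -0.20. The highest were Lamp5 at 0.32 and Pld4 at 0.29, both below the filter. The list had a median difference of -0.05, close to that of all genes above the filter.

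Signalling steps below the receptors came next. Of the other adaptors, Tirap was at -0.19 and Ticam1 at -0.12, and Ticam2 at 0.57 had a heterozygous signal of 7.48, below the filter value. None of the 9 kinase-level genes above the filter was past 1.5-fold. The lowest there were the kinase Irak2 at -0.47 and the ubiquitin-conjugating enzyme Ube2n at -0.35, while Irak1 was at -0.01 and the kinase gene Map3k7 at 0.04. Among IKK, IRF and NF-kB genes, 1 of 11 above the filter was past 1.5-fold. Irf8, a factor of myeloid and B lineage cells, had a log2 signal of 8.59 on the heterozygous and 9.23 on the knockout array, a difference of 0.63. Rel was the lowest of that list at -0.28, and Irf7, the factor that acts below Tlr7 and Tlr9, was at 0.23.

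Of the 16 negative regulators, all above the filter, Irak3, an inhibitory kinase-like protein, was lower by 1.5-fold at -0.59 and none was higher by that much. Tnip1 followed at -0.39, and the highest were Socs1 at 0.36 and Tnip2 at 0.25. Receptors that share Myd88 with the Toll-like receptors gave no gene past 1.5-fold: Il18r1 was at -0.50, Il1rap at -0.42 and Il1rl2 at 0.16. Of 18 inducible targets, 16 were higher by sign, but 12 were below the filter, where the median difference was 0.14 for all genes. Above it Icam1, an adhesion molecule, was the highest at 0.57 and Nfkbiz was at 0.27. Below it Cd86, a costimulatory ligand, was the lowest of the list at -0.86.

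Interferon-stimulated genes were lower by sign in 18 of 19 measured cases, with a median difference of -0.33. Of all genes above the filter 59.1% were lower by sign, as were 39.3% of all measured genes. Of the 17 that passed the filter, 6 differed by 1.5-fold or more, each of them lower, where 3.17% of all genes above the filter were lower by that much. The list was chosen with earlier results of these data known. Ifit3 was at -0.88, Ifit2 at -0.82 and Oasl2 at -0.74, with Rsad2, Oas3 and Ifit1 between -0.62 and -0.60, and Oas2 was the highest at 0.29. Other sensors of nucleic acids and cell wall fragments had a median of -0.25 and none of 8 past 1.5-fold. Nod1 was the lowest at -0.58, and Dhx58, a relative of the cytosolic RNA sensors, was at -0.46, while Nod2 was at 0.20.

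**Figure D4:**
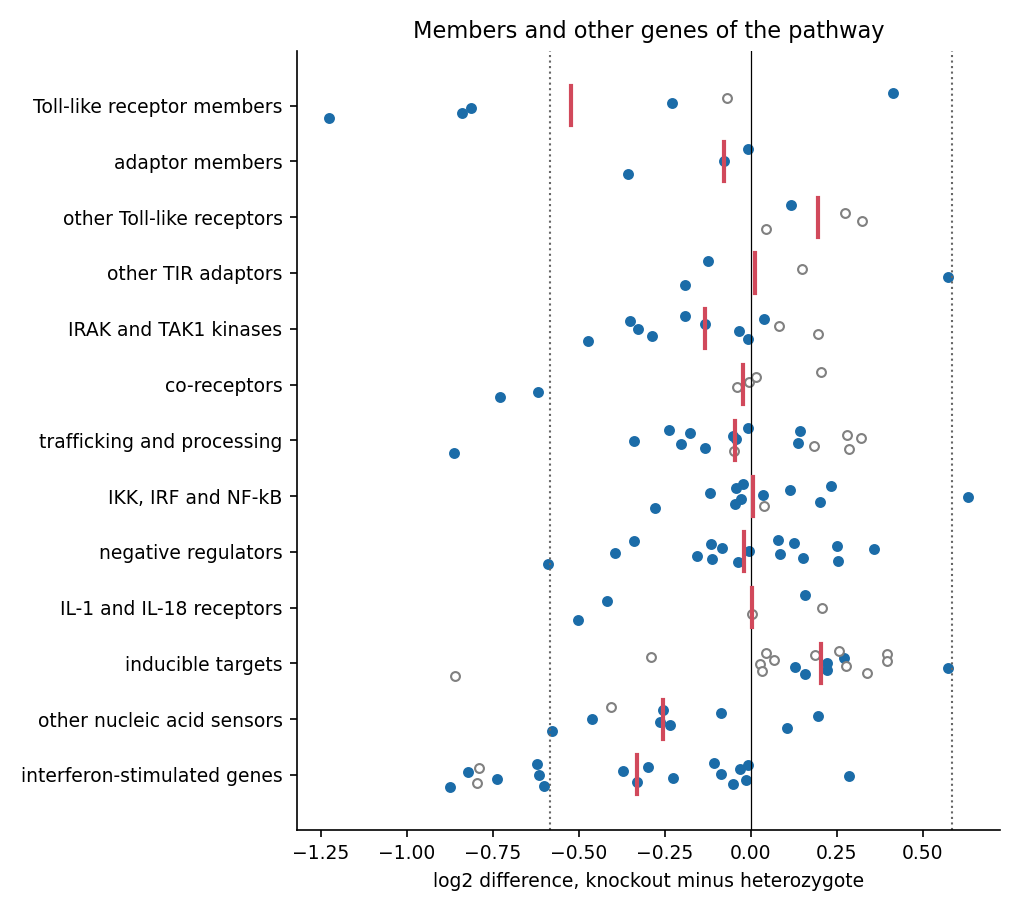
The log2 difference of knockout minus heterozygote (x axis) for every measured gene of the members and of 11 further lists (rows); filled points are above the filter on mean signal, open points below it, red bars are list medians over all measured genes, and dotted lines mark 1.5-fold. The receptor members have a median of -0.52, or -0.23 without Tlr7, which was chosen for its low value, and the interferon-stimulated genes one of -0.33.

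Marker genes of other cells were read beside these values, since several members are abundant in myeloid and B cells. The markers of the labelled cell type were high: all 7 measured CD4 T cell genes were above the filter. Their log2 signals ran from 11.06 to 13.50 over both arrays. Of the 2 CD8 T cell genes, Cd8b1 had a log2 signal of 10.50 on the heterozygous and 10.24 on the knockout array. Cd8a, at 7.63 and 7.65, was below the filter. Of 10 B cell genes 8 were below the filter, as were 11 of 13 of monocytes and macrophages. So were 7 of 8 of conventional dendritic cells and 9 of 9 of neutrophils. Plasmacytoid dendritic cells went the other way, with 5 of 8 genes above the filter and 3 below it. Below the filter, Ms4a1 stood at 5.38 on the heterozygous and 5.73 on the knockout array. Lyz2, at 6.49 and 6.54, and Siglech, at 7.27 and 7.39, were also below it. Above the filter on the same arrays were Cd72 of B cells at 9.86 and 9.06 and Cd79b at 8.24 and 8.23. So were Cd68 of macrophages at 8.75 and 8.89 and Pacsin1 of plasmacytoid dendritic cells at 10.33 and 10.28. On the log2 scale, the summed signal of the B cell list was 10.97 on the heterozygous and 10.75 on the knockout array, that of monocytes and macrophages 10.84 and 10.92, and that of plasmacytoid dendritic cells 11.78 and 11.71. The median differences of these lists were 0.19, 0.15 and 0.03. By sign 7 of the 10 B cell genes and 11 of the 13 monocyte and macrophage genes were higher. Most of them were below the filter, where 7823 of all 9481 genes were higher by sign, so nothing is read from these counts. The ends of the lists lay on both sides, with Cd72 of B cells at -0.80, Itgam of myeloid cells at -0.79 and Ccr9 at -0.76, and with Clec10a of conventional dendritic cells at 0.70, Ms4a1 at 0.35 and C1qb of macrophages at 0.39. The part of such cells in the values of Tlr7, Tlr1 and Tlr6 was not tested.

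Regulatory T cell markers were also lower. Of 12 measured, 11 were lower by sign, against 59.1% of all genes above the filter and 39.3% of all measured genes. Among the 11 with a mean over the filter, 7 were lower by 1.5-fold or more, against 3.17% of all such genes. The marker lists were chosen with earlier results of these data known. The median difference was -0.89, and the summed log2 signal was 14.21 on the heterozygous and 13.49 on the knockout array. Foxp3, which defines the lineage, had a log2 signal of 11.25 on the heterozygous and 10.19 on the knockout array. Nrp1 was the lowest at -1.67, and Itgae, at 0.03, was the highest. Memory and activation markers had a median of -0.34 over 15 genes, with 2 of 9 above the filter lower by at least 1.5-fold, Cd44 at -1.35 and Icos at -0.66. Naive T cell markers had a median of -0.11, none of 7 past 1.5-fold. The part of a different share of regulatory or memory cells in the receptor values was not tested, and with 1 array per genotype it cannot be told apart from the genotype.

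**Figure D5:**
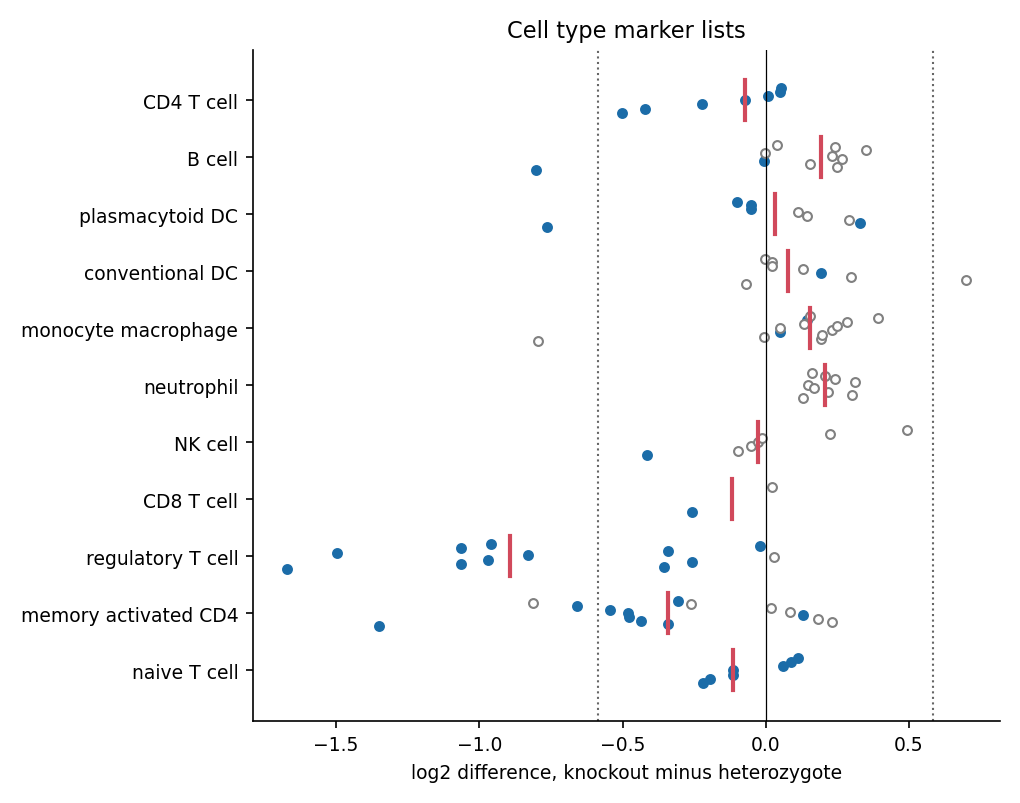
The log2 difference of knockout minus heterozygote (x axis) for the measured genes of 11 marker lists (rows, DC for dendritic cell, NK for natural killer); filled points are above the filter on mean signal, open points below it, red bars are list medians, and dotted lines mark 1.5-fold. Regulatory T cell markers have the lowest median, -0.89, and most markers of B, myeloid and natural killer cells are open points.

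The genes whose pair of log2 signals lay closest to that of Tlr7 were Cyp20a1, Prkar2a and Arhgap5, at distances of 0.17, 0.17 and 0.20 over the 2 arrays. Their differences were -0.99, -1.07 and -1.04. A pair of values from different probes is a coarse measure of likeness.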

How the data were processed

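Gene-level log2 values of 2 arrays, 1 per genotype, were used as deposited. The authors made these log2 values with RMA in Affymetrix Expression Console 1.1, keeping the core gene set, per the series design text and the submitters' processing notes. The design text names an exon array, but the row identifiers match the probe table of a gene-level array, so what probes each value summarises is uncertain. The sources used here name no genome build for the probes. Of 35556 rows, 21789 had 1 gene symbol, 1621 several and 12146 none, and only the first kind was named. For genes with several transcript clusters that of highest mean was taken. Values were subtracted with no further normalization, and genes with a mean at or above the 50th percentile of rows were counted past 1.5-fold and 2-fold. The members and all lists were chosen with earlier results of these data known. Named by rule are all members, pathway list genes past 1.5-fold above the filter, up to 2 genes at each end of a pathway list, marker list ends, the nearest pairs of values, and neighbours of Tlr7 in rank and gene order. Any other gene was named after its values were seen. The 500 nearest genes describe spread only. Alternatives were centring, removal of a loess trend (span 0.3), averaged clusters, quantile normalization, and the filter dropped or set to the 25th or the 75th percentile. Counting was tested on simulated data, with large changes planted only in genes well above the filter and no offset that changed with signal. That test does not cover genes near the filter. A planned protein comparison was not run. Software was statsmodels 0.14.6 and pandas 2.3.3 under Python 3.11.15, with numpy 2.4.6, and figures came from matplotlib 3.10.9.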

Additional observations from a re-analysis of the deposited data

How the results depend on the processing

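No paired analysis was possible because there was a single array of either genotype, so none could be left out. A filter set to the 75th percentile leaves fewer genes, and there 1 member was lower by 1.5-fold, as were 105 genes, 16 were higher by 1.5-fold, 12 lower by 2-fold and 2 higher by 2-fold. Genes higher by 1.5-fold numbered 71 after centring and 91 with no filter, against 47. The share of lower genes among those past 1.5-fold was 87.6%, and 77.6% after centring. With the loess trend removed, the median of the co-receptors was -0.15, and that of the interleukin receptors -0.16, of the opposite sign to 0.004. The medians of 5 lists (other TIR adaptors, co-receptors, trafficking and processing, negative regulators, and interleukin receptors) changed sign under centring, the loess setting or quantile normalization. Of single members, Myd88 alone changed sign, to between 0.04 and 0.05. Filters and averaged clusters could not move a member's own difference. Precision is limited by the number of arrays.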
